A study of Mus musculus with 8 samples.

Results

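Opsins are light-sensing receptors that bind a retinal chromophore through a lysine in their last membrane helix. Besides the opsins of image-forming vision, the mouse genome holds Opn4, Opn3, Opn5, Rrh and Rgr, and these 5 genes are described here. Members were taken by gene symbol, and each of the 5 matched 1 of the 56465 features of the deposited table. Opn4 encodes melanopsin, the photopigment of a small class of ganglion cells that signal through Gq proteins, phospholipase C and TRPC channels to set the circadian clock and the pupil. Opn3 (encephalopsin) is transcribed in brain and many other tissues, and Opn5 (neuropsin) is a short-wavelength opsin reported in few retinal neurons. Rrh (peropsin) and Rgr are opsin relatives known from the retinal pigment epithelium, where the Rgr product takes part in turning all-trans retinal back to its cis form, and Rgr is also known from Mueller glia.

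RNA was sequenced from 4 detached retinas of TG mice, which express human transferrin, and 4 of WT mice, all labelled C57Bl/6J and all taken 4 days after 10 µl of sodium hyaluronate was injected under the retina. The TG group held 2 males and 2 females with 2 left and 2 right eyes, and the WT group held 3 males and 1 female with 1 left and 3 right eyes. The labels give neither the promoter of the transgene nor the age of the mice, and all 8 samples are detached retina. They also leave unsaid whether the 8 retinas are from 8 mice, so the tests see only sample-to-sample spread, part of which may be technical. Libraries are called by genotype and replicate number.

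Values are DESeq2-normalized read counts as deposited, from libraries of 61535690 to 75866423 reads. As a check of the tissue, 9 rod markers summed to 2354019 to 3507493 normalized reads in TG and 2501221 to 2863426 in WT. Markers of tissues next to the retina stood higher in some libraries than in others. The 10 pigment epithelium markers summed to 16528 to 65941 normalized reads in TG and 15918 to 120541 in WT, with TG 2 and WT 3 the highest in their groups, and none of the 10 was at 0 in all libraries. The 6 lens crystallins summed to 105 to 21223 in TG and 39.1 to 25457 in WT, with TG 6 and WT 3 the highest in theirs.

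The 5 members share the chromophore lysine. Their coding sequences (GENCODE M21, GRCm38) were aligned after translation with that of Opn1sw, the short-wavelength cone opsin gene. A single aligned position held lysine in all 5 members and in Opn1sw, at codon 291 of Opn1sw counted from the start codon, and this is the retinal-binding lysine of the last helix. The windows below are shown because they are what makes each member an opsin by sequence. Each runs 5′ to 3′ from 21 bases before to 21 bases after that codon, which stands in capitals.
Opn4: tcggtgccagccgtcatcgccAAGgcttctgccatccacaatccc
Opn3: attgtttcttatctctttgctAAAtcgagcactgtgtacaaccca
Opn5: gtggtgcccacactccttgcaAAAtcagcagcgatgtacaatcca
Rrh: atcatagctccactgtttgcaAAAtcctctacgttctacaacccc
Rgr: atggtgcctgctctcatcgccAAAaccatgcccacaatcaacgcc
Opn1sw: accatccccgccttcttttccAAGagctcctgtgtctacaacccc
The codon lies at chr14:34594820-34594822 in exon 7 of 9 of Opn4, at chr1:175663575-175663577 in exon 3 of 4 of Opn3, and at chr17:42580657-42580659 in exon 5 of 7 of Opn5. It lies at chr3:129810573-129810575 in exon 6 of 8 of Rrh and at chr14:37038347-37038349 in exon 7 of 7 of Rgr. In Opn1sw it lies at chr6:29378779-29378781 in exon 4 of 5, and all 6 genes are on the minus strand. The Rgr window crosses an exon junction. Opn4 and Opn1sw use AAG, and the other four use AAA. Over aligned codons, the encoded residues matched Opn1sw at 30.4% in Opn4, 29.1% in Opn3, 25.8% in Rrh, 20.2% in Opn5 and 19.6% in Rgr.

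Set per kilobase of exon, levels of the members lay below those of the cone opsins and differed widely among themselves. Exon length was that of all annotated transcripts together, 4786 bases for Rgr, 5910 for Rrh, 2557 for Opn1sw and 1562 for Opn1mw. The middle-wavelength cone opsin gene Opn1mw lay at 4848 to 8787 normalized reads per kb in TG and 6985 to 14022 in WT, and Opn1sw at 4684 to 9430 in TG and 3374 to 8887 in WT. Rgr lay at 158 to 1017 per kb in TG and 86.8 to 2439 in WT, below both cone opsin genes in all 8 libraries. Rrh lay at 240 to 401 per kb in TG and 197 to 287 in WT, Opn4 at 66.9 to 117 in TG and 39.4 to 84.0 in WT, and Opn3 at 10.1 to 28.3 in TG and 3.06 to 12.5 in WT. The order Rrh, Opn4, Opn3, Opn5 held in all 8 libraries with no overlap of ranges, whereas the ranges of Rgr and Rrh overlapped and Rgr was the higher one in 3 of 8 libraries. The ranges of Opn1mw and Opn1sw overlapped as well. Per kb, Opn1sw was 16.5 to 35.0 times Rrh and 40.7 to 138 times Opn4. These comparisons depend on the length used, since the coding parts differ less (291 codons in Rgr, 337 in Rrh and 346 in Opn1sw). Without division by length, WT 3 held 11673.5 normalized reads of Rgr, against 13953.7 of Opn1sw and 13070.5 of Opn1mw.

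**Figure D1:**
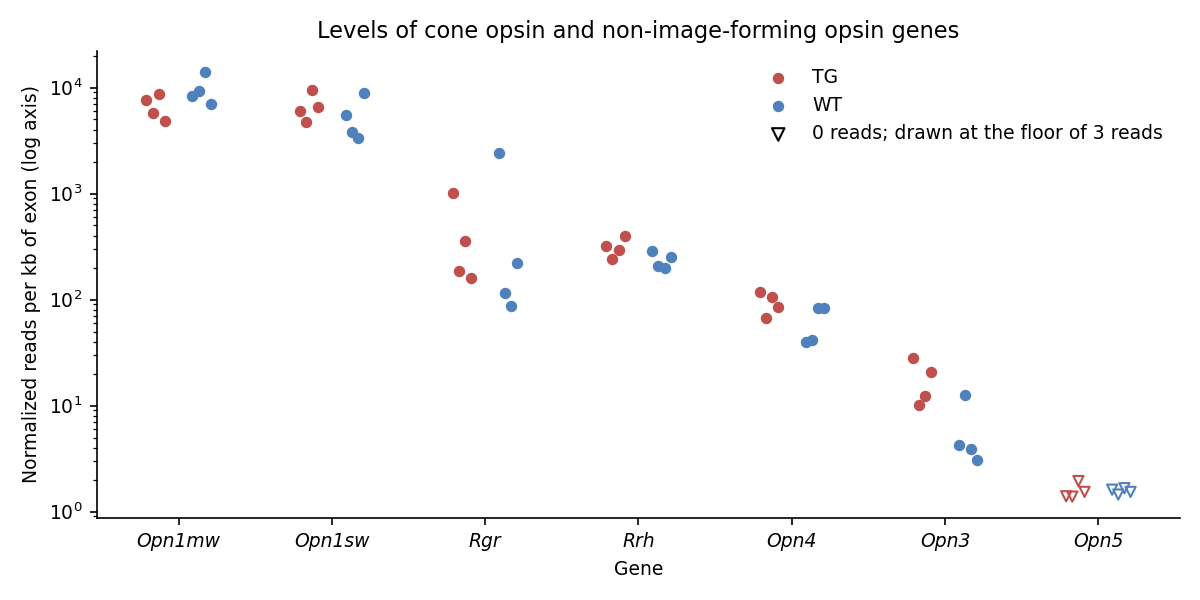
Normalized reads per kb of exon (log axis) for 2 cone opsin genes and the 5 members, 1 point per library, TG left of WT for each gene. Opn5 had 0 reads and is drawn as open triangles at the floor of 3 reads, so the triangles are upper limits. Opn1mw lies at 4848 to 14022 and Opn3 at 3.06 to 28.3.

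None of the members passed the test of TG against WT. The test was limma on log2(normalized value + 1) over the 19798 features whose mean over libraries reached 10, of which 0.0101% had an adjusted p under 0.05, and 0 of the 4 tested members did. Opn5 fell under the minimum and was not tested. The count tests on recovered reads called 0.0101% (edgeR) and 0.081% (DESeq2) of features and no member. DESeq2 gave p-values for 19745 features and none for Rgr, so it did not test that member. An unadjusted p under 0.05 was reached by 4.64% of all features in limma, with Opn3 the only member, by 4.12% in edgeR, with Rrh the only member, and by 5.35% in DESeq2, with Opn3 and Rrh. Groups did not overlap for 2.53% of all features and for none of the members. By limma all 4 estimates were above 0, against 47.8% of all features, but that of Rgr was below 0 in edgeR (-0.70) and DESeq2 (-0.74) and turned when single libraries were left out. In whole retina, fewer cells of a type and less RNA per cell cannot be told apart.

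**Figure D2:**
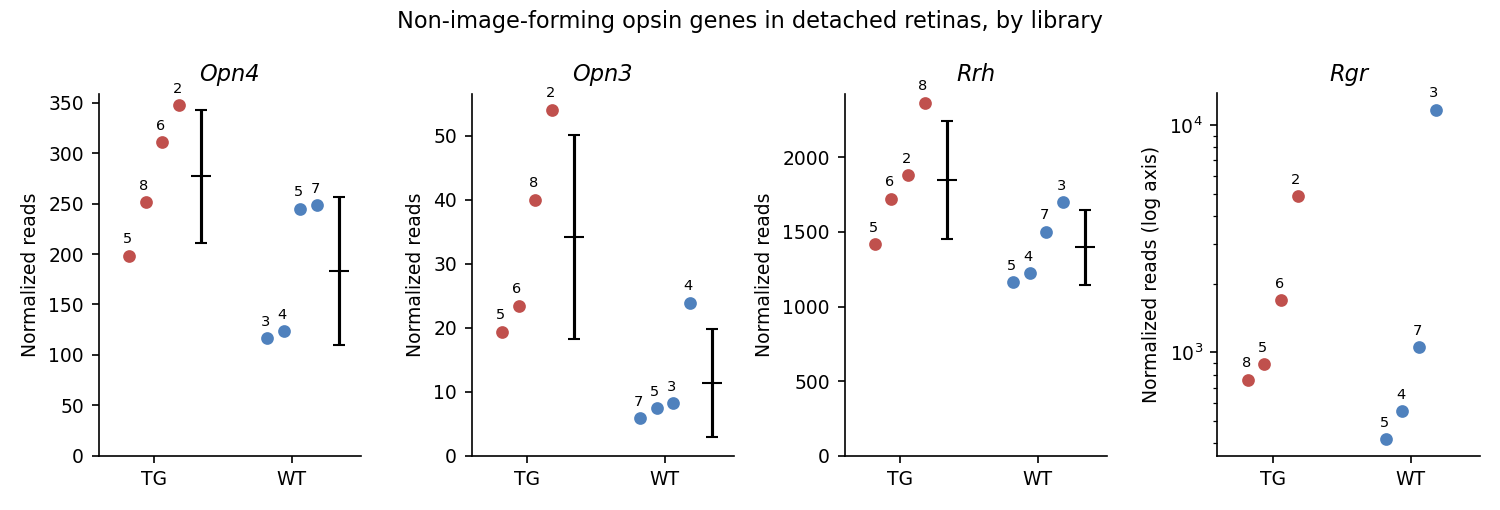
Normalized reads of Opn4, Opn3, Rrh and Rgr by library, TG left of WT, with replicate numbers beside the points. Black bars in the first 3 panels are the group mean ± SD (n = 4 each), and points run from low to high within a group; the axis of Rgr is logarithmic and shows no mean, because WT 3 (11673) lies far above the other WT libraries (415 to 1056).

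Opn4, melanopsin, had 347, 198, 311 and 252 normalized reads in TG 2, TG 5, TG 6 and TG 8, against 117, 123, 245 and 249 in WT 3, WT 4, WT 5 and WT 7. The lowest TG library lay under both of the higher WT libraries, and WT 3 and WT 4 lay below all others. The means were 277 ± 65.8 in TG and 183 ± 73.3 in WT (SD, n = 4 each). On the log2 scale TG stood 0.65 ± 0.32 (SE) above WT, short of the threshold (limma adjusted p = 0.92), and the 95% interval ran from -0.05 to 1.35. Left eyes held the highest value of each genotype, 311 and 347 in TG and 249 in WT. Right eyes held 198 to 252 in TG and 117 to 245 in WT, and the difference between eyes was not tested. The only WT left eye, WT 7, was also the only WT female, so eye and sex cannot be told apart in WT. Its 249 lay close to the 245 of WT 5, a right eye. With eye as a term the log2 fold change was 0.50, and without WT 3 and TG 2 it was 0.35.

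Melanopsin is made by ganglion cells, and general markers of those cells varied between the same libraries. Of the 13 ganglion cell markers, 8 stood higher and 5 lower in TG, 0 passed, and their median log2 fold change was 0.0055 (-0.02 over all features tested). Their mean log2 level, used as a score, was lowest in TG 5 (11.20) and WT 3 (11.18) and highest in TG 2 and WT 7 (12.04 in WT 7). In a limma fit with genotype and this score, Opn4 changed by 1.08 ± 0.45 log2 per log2 unit of the score (SE), which did not pass over all features (adjusted p = 0.68), as did none of the 19798 features (0% called). With the score in the fit the Opn4 difference between genotypes was 0.58 log2. Stmn2, a neuronal microtubule regulator, had 9582, 9083, 10054 and 10448 normalized reads in the TG libraries (same order as above), against 6803, 7094, 9233 and 9543 in the WT libraries. Stmn2 is 1 of the 13 markers that make up the score. It is among the 3 genes most like Opn4 over the 8 libraries (Pearson r 0.92, Spearman coefficient 0.91), with the phosphodiesterase gene Pde11a (r 0.95, Spearman 0.79) and the RNA-binding protein gene Hnrnpa1 (r 0.92, Spearman 0.81). These likenesses are the highest among 12143 features, so they describe the libraries and were not tested. Tubb3, a neuronal tubulin, stood at a log2 fold change of 0.39 ± 0.20 (SE), and Thy1 and Sncg, ganglion cell surface and synuclein genes, at 0.26 ± 0.20 and 0.24 ± 0.21, and none passed (adjusted p = 0.92 each, limma). Pou4f2, 1 of the 5 lower markers, stood at -0.31 ± 0.28 (SE).

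Transcription factors of melanopsin cells varied between libraries without a shift between genotypes that passed. Of 7 such genes 3 stood higher and 4 lower in TG, with a median log2 fold change of -0.04. Eomes, a T-box factor needed for these cells, had 275, 117, 270 and 396 normalized reads in the TG libraries, against 142, 239, 270 and 235 in the WT libraries. Its lowest values were in TG 5 and WT 3, the libraries with the lowest ganglion cell score. Irx1 stood at 0.50 ± 0.51 and Pou4f2, a factor of most ganglion cells, at -0.31 ± 0.28 (log2 fold change, SE). Irx1 was 0.19 without WT 4 and Pou4f2 0.032 without TG 5, and Eomes, at 0.17, turned to -0.066 without TG 8 and -0.03 without WT 3. The 12 genes of melanopsin signalling gave 9 higher and 3 lower estimates with a median of 0.13, and 0 passed. Gnaq, a Gq alpha subunit that couples melanopsin to phospholipase C, had 124, 55.5, 34.6 and 103 normalized reads in the TG libraries, against 114, 212, 155 and 164 in the WT libraries. TG 2 lay above WT 3, and the log2 difference of -1.15 ± 0.42 (SE) fell short of the threshold (limma adjusted p = 0.92). The channel genes Trpc7 and Trpc6, which carry melanopsin's current, stood at 0.70 ± 0.52 and 0.46 ± 0.41, and Arrb1, an arrestin gene, at -0.59 ± 0.38 (log2 fold change, SE). Leaving out 1 library at a time gave 0.33 (without TG 8) to 1.16 (without TG 6) for Trpc7, 0.17 (without WT 4) to 0.71 (without WT 7) for Trpc6 and -0.87 (without WT 5) to -0.30 (without WT 7) for Arrb1. For the G protein classes Gi and Gs, used by other opsins, 2 of 6 alpha subunit genes stood higher and 4 lower, with a median of -0.14. Gnas stood at 0.23 ± 0.15 and Gnai2 at 0.23 ± 0.16 (log2 fold change, SE), and 0 of the 6 passed.

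Opn3, encephalopsin, was scarce, with 190 reads over the 8 libraries together. It had 54.1, 19.4, 23.5 and 40.0 normalized reads in TG 2, TG 5, TG 6 and TG 8, against 8.19, 23.9, 7.40 and 5.85 in WT 3, WT 4, WT 5 and WT 7. A single WT library, WT 4, lay inside the TG range, and the other WT libraries lay below every TG library. The means were 34.2 ± 16.0 in TG and 11.3 ± 8.45 in WT (SD, n = 4 each). On the log2 scale TG stood 1.60 ± 0.73 (SE) above WT with a 95% interval from 0.04 to 3.17, which was short of the threshold over all features (limma adjusted p = 0.92). The count tests gave 1.58 (edgeR, adjusted p = 0.97) and 1.59 (DESeq2, adjusted p = 0.93). Counts this low carry wide counting error, since WT 7 held 6 Opn3 reads, WT 5 held 7 and WT 3 held 8.

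Opn3 shares its locus with Chml, a gene for a Rab escort protein, which the table places within Opn3 from 175682237 to 175688353 on chromosome 1. Both lie on the minus strand (GENCODE M21), and the labels do not say how reads in the overlap were assigned. The overlap of 6117 bases is one of gene spans. Opn3 has 1913 exon bases in all, and the overlap of exons was not computed. Chml had 459, 512, 805 and 741 normalized reads in the TG libraries, against 1080, 611, 679 and 543 in the WT libraries. It was therefore the more abundant of the pair in every library, and its log2 difference between genotypes was -0.20 ± 0.25 (SE; limma adjusted p = 0.93) and 0.0090 without WT 3. The genes whose pattern over the 8 libraries was most like that of Opn3 were Tcap (r 0.95, Spearman 0.86), Srgap2 (r 0.94, Spearman 0.83) and Amer3 (r 0.93, Spearman 0.91).

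Opn5, neuropsin, had 0 reads in all 8 libraries. Against a floor of 3 reads, that allows at most 2.64 to 3.70 normalized reads in a TG library and 2.76 to 3.17 in a WT library, or 0.0395 to 0.0488 RPM (reads for every 1e06 counted). Per kb, the floor is 1.39 to 1.94 normalized reads, and Opn4 lay 24.5 to 84.1 times above it. The feature spans 42556780 to 42611395 on chromosome 17, and no other feature of the table overlaps it. Opn5 RNA was thus not detectable at this depth, and no fold change can be given. The floor covers counting error only.

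Rrh, peropsin, had 1879, 1418, 1722 and 2368 normalized reads in TG 2, TG 5, TG 6 and TG 8, against 1698, 1222, 1164 and 1501 in WT 3, WT 4, WT 5 and WT 7. TG 8 was the highest library and WT 5 the lowest, and TG 5 lay below WT 3 and WT 7. The means were 1847 ± 397 in TG and 1396 ± 249 in WT (SD, n = 4 each). On the log2 scale TG stood 0.40 ± 0.19 (SE) above WT, short of the threshold (limma adjusted p = 0.92), and the 95% interval ran from -0.0042 to 0.80. Without TG 8 it was 0.27, and without TG 5 it was 0.51. Genes most like Rrh over the 8 libraries were Hcls1 (r 0.93, Spearman 0.95), Barhl2, a factor of amacrine and ganglion cells (r 0.93, Spearman 0.91), and Lingo2 (r 0.92, Spearman 0.91). Lrit3, which begins 377 bases beyond Rrh on the same strand and encodes a protein of the bipolar cell synapse, had 827, 567, 534 and 352 normalized reads in the TG libraries, against 741, 1224, 592 and 1083 in the WT libraries. TG 8 was thus the lowest library for Lrit3 and the highest for Rrh, and Lrit3, named after its values were seen, differed by -0.68 ± 0.28 log2 between genotypes (SE; limma adjusted p = 0.92).

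Rgr had 4866, 888, 1696 and 757 normalized reads in TG 2, TG 5, TG 6 and TG 8, against 11673, 551, 415 and 1056 in WT 3, WT 4, WT 5 and WT 7. WT 3 and TG 2 stood far above the rest, so the highest library was 28.1 times the lowest, compared with 2.03 times for Rrh and 2.98 times for Opn4. Its log2 SD within groups was 1.77, larger than that of 99.8% of the 3179 features of a mean within 2-fold of its own. The log2 difference of 0.24 ± 0.85 (SE) had a 95% interval from -1.59 to 2.08 (limma adjusted p = 0.98). The means ran the other way, with 2051 ± 1922 in TG and 3424 ± 5507 in WT (SD, n = 4 each). Estimates from edgeR (-0.70) and DESeq2 (-0.74, without a p-value) were below 0. Single libraries moved the limma value in size and sign. Without WT 3 the log2 fold change was 1.30 (adjusted p = 0.99), without WT 3 and TG 2 it was 0.74 (adjusted p = 0.87), and it was below 0 without TG 2 (-0.31), WT 4 (-0.17) or WT 5 (-0.30).

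**Figure D3:**
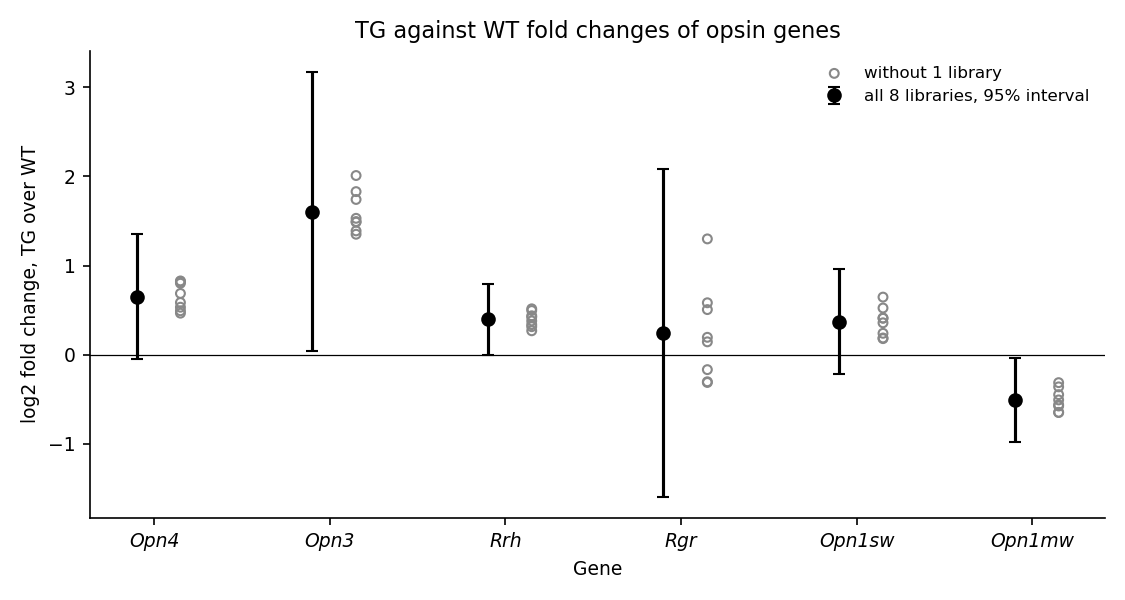
Log2 fold change of TG over WT for the 4 members tested and 2 cone opsin genes; filled points with bars are the limma estimate and its 95% interval over 8 libraries, and open points leave out 1 library each. The open points of Rgr spread from -0.31 to 1.30 across 0, and those of Opn4 (0.47 to 0.83), Opn3 (1.35 to 2.01) and Rrh (0.27 to 0.51) stay above 0.

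Rgr varied between libraries with some pigment epithelium genes, and the slope of Rrh on the mean of 10 such markers was near 0. The 3 features most like Rgr over the 8 libraries, out of 12143, were Lrat, the enzyme that esterifies retinol (r 0.99, Spearman 1), Rdh5, a retinol dehydrogenase of the visual cycle (r 0.98, Spearman 0.98), and Timp3, a metalloproteinase inhibitor (r 0.98, Spearman 0.95). Without WT 3 and TG 2 these r values were 0.92, 0.93 and 0.92. Rpe65, the retinoid isomerase of the pigment epithelium, chosen here after its values were seen, had 2697, 486, 1310 and 184 normalized reads in the TG libraries, against 7153, 261, 244 and 617 in the WT libraries. Rgr was 1.29 to 4.11 times Rpe65 in reads, and TG 8 held both the highest ratio and the lowest Rpe65. Not all of the 10 markers followed this pattern. Best1 had 40.8, 13.2, 19.8 and 53.7 normalized reads in the TG libraries, against 29.7, 82.9, 47.6 and 41.9 in the WT libraries. Krt18 was highest in TG 6 (8779) and WT 5 (8877) of their groups.

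A limma fit with genotype and a pigment epithelium score, the mean log2 level of 10 markers that include Rpe65, Lrat and Rdh5 but none of the members, gave the size of this relation. Rgr changed by 1.39 ± 0.12 log2 per log2 unit of the score (SE; adjusted p = 1.5e-04, limma), where 31 of 19798 features (0.157%) passed, 5 of them markers that make up the score. Without WT 3 the slope was 1.14 and no longer passed (adjusted p = 0.18), and without WT 3 and TG 2 it was 0.85 (adjusted p = 0.9998). The slope of Rrh was 0.07 ± 0.09 (SE; 95% interval -0.13 to 0.26; adjusted p = 0.9999), and without WT 3 it was -0.06. Over all libraries the intervals of the 2 slopes do not meet, with 1.12 as the lower end for Rgr. The difference between the slopes was not tested, and no interval is given without WT 3. Allowing for the score, the Rgr difference between genotypes was 0.20 ± 0.27 log2 (SE), and the SE was 0.85 without the score. Opn4 and Opn3 had slopes of -0.05 ± 0.16 and -0.06 ± 0.36 (SE; adjusted p = 0.9999 each).

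**Figure D4:**
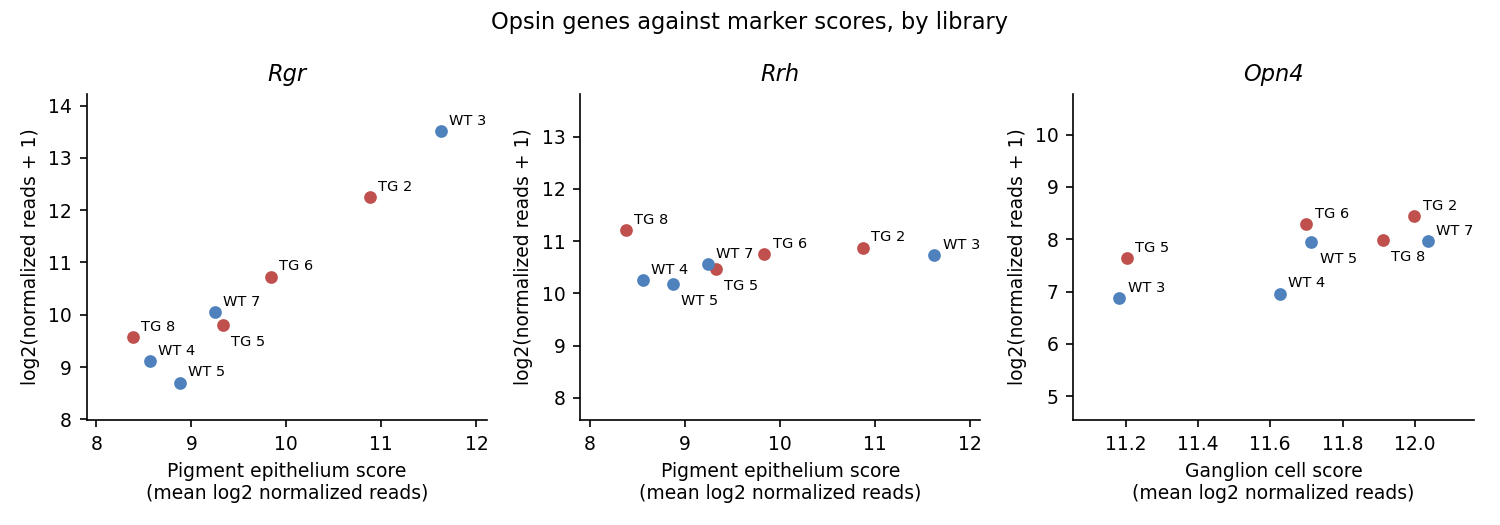
Log2(normalized reads + 1) of Rgr and Rrh against the pigment epithelium score, and of Opn4 against the ganglion cell score, 1 point per library, with y axes of equal span. Rgr climbs with the score from TG 8, WT 4 and WT 5 to TG 2 and WT 3 (slope 1.39), and Rrh stays level (slope 0.07).

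The other pigment epithelium and visual cycle genes gave no difference between genotypes that passed. Of the 10 pigment epithelium markers, 7 stood higher and 3 lower in TG with a median log2 fold change of 0.06, and of 12 retinoid cycle genes 6 stood higher and 6 lower with a median of -0.02. Rlbp1, a retinal carrier of pigment epithelium and Mueller glia, had 22723, 11973, 7259 and 24774 normalized reads in the TG libraries, against 13477, 8062, 5488 and 15351 in the WT libraries, and stood at 0.60 ± 0.38 (log2 fold change, SE). Rdh8, a dehydrogenase of photoreceptors, stood at -0.38 ± 0.20. Of 8 melanin synthesis genes 3 stood higher and 5 lower, with Mitf, their regulator, at -2.16 ± 0.99 and at 0 in TG 8. Mitf stood at -1.03 without TG 8 and at -1.40 in edgeR. Rgr is also known from Mueller glia, whose 10 markers gave 7 higher and 3 lower estimates with a median of 0.25. Among them Apoe, a lipid carrier, had 134750 to 166956 normalized reads in TG and 82481 to 115842 in WT, so its groups did not overlap, but the log2 difference of 0.57 ± 0.15 (SE) was short of the threshold (limma adjusted p = 0.92). Groups did not overlap for 2.53% of all features tested. Car14 stood at 0.42 ± 0.24, and Vim, 1 of the 3 lower markers, at -0.28 ± 0.23. The part of pigment epithelium or Mueller glia RNA in the Rgr values was not tested beyond the score.

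Promoters of Rgr and Rrh are shown because the pair, both known from pigment epithelium, varied so differently here. Sequences are from RefSeq (GRCm38.p6), 250 bases before to 50 after the annotated start, and 4 of the 5 members were matched, all but Opn5. Capitals mark any match on either strand to TAATCC, a core bound by the homeodomain factors Otx2 and Crx, or to the E-boxes CATGTG and CACGTG, which Mitf can bind.
Rgr: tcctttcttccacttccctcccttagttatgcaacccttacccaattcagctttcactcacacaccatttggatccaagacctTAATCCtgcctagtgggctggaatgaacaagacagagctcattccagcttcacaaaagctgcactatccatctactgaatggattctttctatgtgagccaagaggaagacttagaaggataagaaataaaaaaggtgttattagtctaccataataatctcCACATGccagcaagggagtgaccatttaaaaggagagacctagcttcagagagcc
Rrh: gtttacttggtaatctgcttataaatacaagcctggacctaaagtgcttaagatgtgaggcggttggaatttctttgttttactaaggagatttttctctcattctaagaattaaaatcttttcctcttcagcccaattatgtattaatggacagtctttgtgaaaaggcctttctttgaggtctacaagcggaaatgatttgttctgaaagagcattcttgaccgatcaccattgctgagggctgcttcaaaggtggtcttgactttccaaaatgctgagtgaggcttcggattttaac
The Rgr window (chr14:37048965-37049264, minus strand) held 1 TAATCC and 1 CATGTG, read as CACATG on the printed strand, and the Rrh window (chr3:129822456-129822755, minus strand) held none of the 3. The Opn4 window held 1 CATGTG and the Opn3 window none. Over all 32851 promoters of the table, 7.06% held TAATCC, 14.2% CATGTG and 7.15% CACGTG. A match describes letters in the window and nothing more.

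For comparison, the cone opsin genes did not pass either. Opn1sw averaged 17055 ± 5131 normalized reads in TG and 13767 ± 6396 in WT, with a log2 fold change of 0.37 ± 0.27 (SE). Opn1mw averaged 10552 ± 2755 in TG and 15130 ± 4766 in WT (SD, n = 4 each), a log2 difference of -0.51 ± 0.22 (SE; limma adjusted p = 0.92). Of 9 rod markers 3 stood higher and 6 lower (median -0.09), and of 7 cone markers 3 stood higher and 4 lower (median -0.21), with Pde6h, a cone phosphodiesterase subunit, at -0.42 ± 0.19. Of 9 amacrine and dopaminergic markers 6 stood higher and 3 lower (median 0.26), with the inhibitory transporter genes Slc32a1 and Slc6a9 at 0.44 ± 0.19 and 0.44 ± 0.20. In the same list Gad2, 1 of the 3 lower ones, stood at -0.60 ± 0.47, and Slc6a3, at 0 in some libraries, at 2.10 ± 1.67. All 10 microglia and macrophage markers had estimates above 0 (median 0.32), with Ctss, a lysosomal protease, at 0.61 ± 0.18 (0.44 without TG 5). All 6 lens crystallins also had limma estimates above 0 (median 1.21), but with wide errors. Crybb1 averaged 136 in TG and 124 in WT. Its log2 value of 0.9995 ± 0.77 (SE) was 0.14 in edgeR, 0.34 without WT 5 and 1.88 without WT 3. Cryaa, at 1.43 ± 2.06, averaged 2765 in TG and 2788 in WT, and Crybb2, at 2.27 ± 2.21, averaged 3023 and 2877. Crygs, at 1.84 ± 2.05, was at 0 in TG 2, WT 5 and WT 7. None of these markers passed.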

How the data were processed

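Polyadenylated RNA of 8 retinas was sequenced from strand-marking libraries, per the labels' protocols. Per the submitters' processing notes, reads were aligned with STAR 2.4.0 to mm10 (GRCm38) and normalized with DESeq2. The deposited signal values are normalized read counts, per the labels and the values. Which program counted reads, with what strand setting and gene models, was not given in the sources used here. Each column held whole multiples of its smallest positive value (100% of values within 0.01), so whole reads were recovered. Unmapped sample columns numbered 0.

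The test was limma 3.58.1 (R 4.3.3, trended prior variance) on log2(value + 1), run where the mean over libraries reached 10, with Benjamini-Hochberg adjustment and a threshold of 0.05. For low genes the estimate depends on this scale. Opn3 stood at 1.66 with a pseudocount of 0.5 and 1.29 with 5. Mitf, at 0 in TG 8, stood at -2.16 in the main fit and -1.40 in edgeR. Alternatives were TMM and upper-quartile scaling, pseudocounts of 0.5 and 5, no filter or a minimum of 50, edgeR 4.0.16 and DESeq2 1.42.0 on recovered reads, terms for sex, eye or pigment epithelium score, males only, and leaving out libraries. The slopes, the ganglion cell score and leaving out WT 3 and TG 2 were added after values were seen. Exon lengths and codons are from GENCODE M21, aligned with MAFFT 7.526. Members and lists were chosen with earlier results of these data known. The rule for names took the members, image-forming opsins, up to 4 genes per list by smallest p (not all are printed), features overlapping a member, and the 3 features of a mean of at least 50 most like each member. Rpe65 and Lrit3 fall outside it. The limma procedure was tested on simulated counts, with changes set only in features of a mean of at least 50, which Opn3 did not reach. The outcome is not given here, so it does not show which changes the test can miss.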

Additional observations from a re-analysis of the deposited data

Results flagged for a closer look

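A library far from the other 3 of its group was found in 5 of 24 groups of 4 examined. The measure was Dixon's ratio of the gap to the range of normalized reads (not their log2), beyond its 95% critical value. For normally distributed values chance gives about 1 in 20. These reads need not be so distributed, so an excess over chance cannot be read from the count. Opn3 had 23.9 normalized reads in WT 4, against 5.85 to 8.19 in the other WT libraries. Rgr had 11673 in WT 3, against 415 to 1056 in the other WT libraries. The same library stood apart for Rpe65 (7153, against 244 to 617), Lrat (3480, against 114 to 255) and Rdh5 (6921, against 321 to 724), so 4 of the 5 are 1 library.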

How the results depend on the processing

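No paired analysis was run, because the labels name no TG retina as the partner of a WT retina. Replicate number 5 occurs in both groups, and the labels do not make it a pair. The log2 fold changes of Opn4 (0.35 to 0.83), Opn3 (1.28 to 2.01, not fitted with a minimum mean of 50) and Rrh (0.27 to 0.52) kept their sign and stayed short of the threshold under every alternative run, as did Opn1sw and Opn1mw. Opn5 gave no value under any. Rgr ran from -0.74 to 1.30, turning negative with edgeR (-0.70), DESeq2 (-0.74) and without TG 2 (-0.31), WT 4 (-0.17) or WT 5 (-0.30); the cause was not tested. Signs also turned for Arrb1 with males only (0.084), Sncg with males only (-0.10), Pou4f2 without TG 5 (0.032, from -0.51 over the libraries left out in turn), and Chml without WT 3 (0.0090, from -0.33 likewise) or WT 3 and TG 2 (0.15). Eomes, at 0.17 over all libraries, turned with males only (-0.22), without TG 8 (-0.066), without WT 3 (-0.03), without WT 3 and TG 6 (-0.082) and without WT 3 and TG 2 (-0.090), and reached 0.52 without another library. The slope of Rrh on the pigment epithelium score turned without WT 3 (-0.063, with 0.17 the highest without 1 library) and without WT 3 and TG 2 (-0.23), and that of Rgr no longer passed without WT 3 (1.14; 1.55 is the highest without 1 library) or both (0.85). Over all features the count called was 2, and 1 to 3 without 1 library. It was 1 with a pseudocount of 0.5, no filter, a minimum mean of 50 or sex as a term, 4 with males only and 16 with DESeq2, where none was a member. Opn3, with 190 reads in all, carries the widest counting error of the members tested, and for Opn5 only an upper limit can be given.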
